A study of Mus musculus with 3 samples.

Results

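The 22350 protein-coding genes of the GENCODE M1 annotation on chromosomes 1 to 19 and X, of 37310 genes annotated on the mouse assembly mm9, were examined for the amount of Ser5-phosphorylated RNA Pol_II they carried in unstimulated macrophages. They were chosen by annotation alone, and each was counted over its whole annotated span and in a window of 1 kb on either side of its transcription start site (TSS), taken as the 5′ end of the gene record. The macrophages were bone marrow-derived (BMDM), from female Fvb mice, collected on day 7 of culture in medium with 30% L929-conditioned medium, a source of the macrophage growth factor M-CSF, and received no lipopolysaccharide (LPS). The ChIP library was made with an antibody to the Pol_II C-terminal domain phosphorylated at Ser5 (Abcam ab5131), and the control was input DNA, chromatin sequenced without an antibody, from untreated cells of the same kind. There was 1 library of each, and neither the number of mice nor any pooling is given, so the differences described could not be checked against replicates or tested, and each 95% interval covers counting error only.

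Pol_II transcribes all protein-coding genes, and the tail of its largest subunit is phosphorylated at Ser5 by the kinase of TFIIH as the enzyme leaves the promoter. Ser5-phosphorylated Pol_II is therefore usually densest just past the TSS and is found at lower density along transcribed genes. Macrophages depend on M-CSF signalling through its receptor Csf1r and on lineage transcription factors such as PU.1 (Sfpi1) and the C/EBP proteins, are rich in lysosomes and in proteins of iron handling, and switch on cytokine and chemokine genes within hours of meeting LPS.

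The Ser5 library held 7616771 tags on these chromosomes and the input 7533308, of which 84.5% and 82.7% lay at distinct positions and strands. Densities are given as TPM per kb (the tags-per-million value divided by length in kb, relative to the library total on these chromosomes), and the ratio is the Ser5 density divided by that of input, with 0 tags set to 3 in either library and no ratio given where both held 3 or fewer. The median gene held 95 Ser5 and 61 input tags, and the median TSS window 13 and 10. Genes were called when the ratio was at least 2 with at least 20 tags in both libraries together over the gene, or at least 10 in the TSS window. By this rule 6845 of the 17452 genes with enough tags were called over the whole gene (39.2%), and 10681 of 14855 at the TSS (71.9%). As shares of all 22350 genes these were 30.6% and 47.8%. In all 6371 genes were called by both measures, 4310 at the TSS only and 474 over the gene only. The median ratio was 1.21 over the gene and 4.66 at the TSS. These and all later medians of ratios leave out genes without a ratio, here 3106 over the gene and 3805 at the TSS. Of the Ser5 tags 4029818 lay outside the deposited peaks of untreated Ser5, and of the input tags 7279508. Scaling both libraries to the tags outside these peaks multiplied every ratio by 1.83, so a ratio somewhat under 1 does not show less signal than background. The tags of the Ser5 library labelled untreated have the length that the methods give for the LPS-treated sample and not the one for untreated cells. An exchange of the Ser5 files and an error in the methods cannot be told apart here, the label was followed, and all results are those of the library labelled untreated. Of the genes known to be induced by LPS, some were at or under input in it, with 11 Ser5 and 61 input tags over Il12b, 20 and 31 over Il6, and 35 and 62 over Il1b, while others such as Ccl2 and Tnf were high.

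Ser5 was concentrated at promoters. The TSS windows covered 42.2 Mb and held 26.1% of the Ser5 tags and 3.13% of the input tags, while whole genes covered 994.1 Mb and held 65.8% and 48.2%. The 100 genes of any length with the largest excess of Ser5 over input density over the gene covered 0.17 Mb. They held 1.07% of all Ser5 tags, against 0.0221% of the input tags.

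Promoter sequences are shown for 4 genes taken by Ser5 rank or gene name, and these genes differ in CpG content and in Ser5. The sequences run from 250 bases before to 50 bases from the TSS on, 5′ to 3′ on the gene's strand, and were read from mm9, with each CG dinucleotide in capitals. Fth1 and Hist4h4 had the largest excess at the TSS, and Sfpi1 encodes PU.1. Olfr1000, an odorant receptor gene, was the first of its family by symbol with no Ser5 tag at its annotated TSS. From the annotated TSS on, the Hist4h4 and Olfr1000 sequences begin with ATG, the letters of a start codon. These 2 records may therefore start at the coding sequence, and whether the 250 bases before are a promoter was not tested. The positions are chr19:10056943-10057242 (+) for Fth1, chr6:136752851-136753150 (−) for Hist4h4, chr2:90922297-90922596 (+) for Sfpi1 and chr2:85449016-85449315 (−) for Olfr1000.
Fth1: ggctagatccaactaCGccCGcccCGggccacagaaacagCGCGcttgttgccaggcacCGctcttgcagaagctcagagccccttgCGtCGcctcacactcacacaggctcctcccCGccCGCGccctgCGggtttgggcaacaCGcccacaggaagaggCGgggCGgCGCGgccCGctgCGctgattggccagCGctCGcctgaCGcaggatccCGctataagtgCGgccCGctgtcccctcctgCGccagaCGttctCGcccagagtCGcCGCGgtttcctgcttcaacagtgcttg
Hist4h4: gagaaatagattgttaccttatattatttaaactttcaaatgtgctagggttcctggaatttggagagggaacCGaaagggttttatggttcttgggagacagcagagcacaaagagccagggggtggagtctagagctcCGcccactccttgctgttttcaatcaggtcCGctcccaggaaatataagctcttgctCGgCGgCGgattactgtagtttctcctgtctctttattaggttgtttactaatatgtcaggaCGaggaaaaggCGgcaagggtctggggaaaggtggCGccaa
Sfpi1: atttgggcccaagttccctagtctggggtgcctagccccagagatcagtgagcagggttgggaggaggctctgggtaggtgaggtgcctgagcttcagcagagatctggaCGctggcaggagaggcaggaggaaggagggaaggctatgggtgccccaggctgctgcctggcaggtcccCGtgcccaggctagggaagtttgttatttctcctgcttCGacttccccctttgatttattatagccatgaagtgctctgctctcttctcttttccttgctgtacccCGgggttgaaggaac
Olfr1000: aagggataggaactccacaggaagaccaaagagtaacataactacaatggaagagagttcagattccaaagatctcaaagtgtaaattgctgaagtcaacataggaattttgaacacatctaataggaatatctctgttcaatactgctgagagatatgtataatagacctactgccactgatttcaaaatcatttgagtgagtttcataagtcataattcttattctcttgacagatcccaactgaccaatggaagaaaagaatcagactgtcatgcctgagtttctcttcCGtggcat
The Fth1 sequence holds 31 CG dinucleotides, Hist4h4 9, Sfpi1 4 and Olfr1000 1, beside a median of 11 over the same stretch of all genes. Sfpi1 was among the called genes in spite of its low CpG content, with 664 Ser5 and 27 input tags at the TSS. The letters CCAAT are in the Fth1 and Olfr1000 sequences, on either strand.

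The genes that carried the most Ser5 per kb in unstimulated cells encode abundant macrophage proteins, core cell components and a few signalling regulators. Among genes of at least 2 kb, Fth1, the heavy chain of the iron store ferritin, came first (chr19:10057193-10059582), with 4070 Ser5 and 23 input tags, or 223.6 and 1.28 TPM per kb, a ratio of 175.0 (116.5 to 276.4). Actb, cytoplasmic β-actin, held 3498 and 36 tags (126.2 and 1.31 TPM per kb). Lyz2, the lysozyme that macrophages secrete, held 3994 and 34 tags (105.1 and 0.905 TPM per kb), and Tmsb4x, which binds monomeric actin, 1461 and 21 (86.3 and 1.25 TPM per kb). The intervals of the Ser5 densities of Fth1, Actb and Lyz2 did not meet.

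Next came Tnf, a main inflammatory cytokine, with 1634 Ser5 and 44 input tags (81.7 and 2.22 TPM per kb, ratio 36.7). It was followed by Hist1h1d, a linker histone, at 63.8 TPM per kb and by Atf4, a transcription factor of the stress response, at 59.9. Also among the first 12 were Grcc10 at 56.9 TPM per kb, Trex1, a DNA exonuclease, at 54.4, Nfkbia, the NF-κB inhibitor IκBα, at 46.1, and Mcl1, a survival factor, at 43.9. In input the 11 genes named lay between 0.905 (Lyz2) and 2.22 (Tnf) TPM per kb. With 1 tag kept per position and strand, 11 of the 12 remained among the first 12, and the ratio of Fth1 fell from 175.0 to 93.8.

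**Figure D1:**
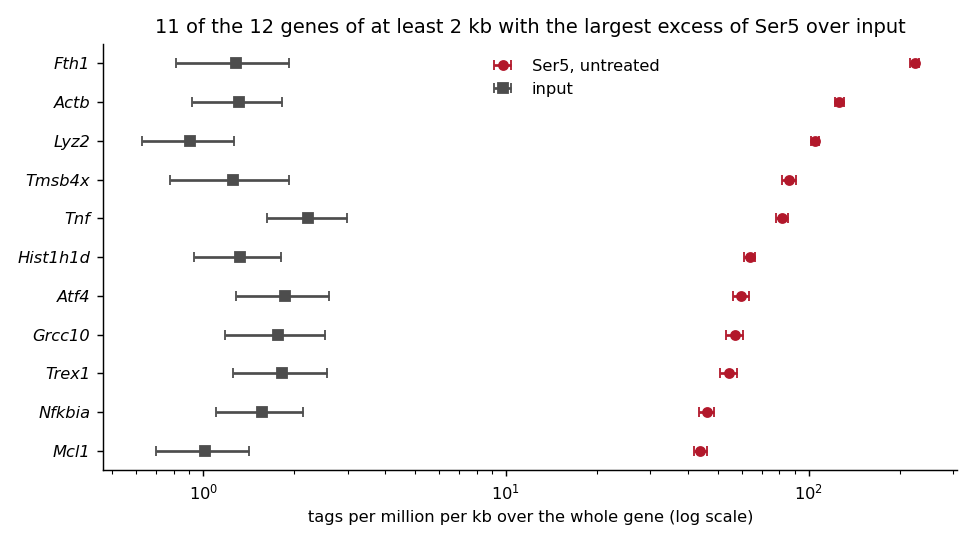
Density over the whole gene of Ser5 (red circles) and input (grey squares), in TPM per kb on a log scale, for 11 of the 12 genes of at least 2 kb with the largest difference between the libraries; bars are 95% counting intervals of each single library. All 11 lie at 43.9 TPM per kb or more in Ser5 and at 2.22 or less in input.

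Trex1 and Grcc10 show how the position of the tags differed within this group. Trex1 had 243 Ser5 tags in its TSS window and 76.5 TPM per kb beyond it, so that its tags lay past the start given in the annotation, whereas Grcc10 had 1042 tags at the TSS and 4.63 TPM per kb beyond. Without the first 1 kb the ratio was 38.6 for Trex1 and 3.2 for Grcc10.

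At the TSS, histone genes dominated. After Fth1 (3254 Ser5 and 24 input tags, 213.6 and 1.59 TPM per kb) came Hist4h4 with 2745 and 32 tags (180.2 and 2.12 TPM per kb) and Actb with 2736 and 33 (179.6 and 2.19 TPM per kb). Hist2h2bb held 171.4 TPM per kb, Hist1h1c 153.5, Hist2h4 127.5, Hist1h1e 121.8, Hist1h1d 110.2 and Hist1h1b 108.4. Lyz2 (117.2 TPM per kb) and 4930404N11Rik (111.0) were also among the first 12. Hist2h2bb starts 1067 bp from Hist2h3b, and Hist1h1e 1378 bp from Hist1h2be, so that their windows overlap.

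Replication-dependent histone genes, the short intronless genes that supply nucleosome proteins during DNA replication, had the highest median ratio of the 32 gene lists. Of the 67 genes, 55 had enough tags and all 55 were called over the gene. The median ratio over the gene was 56.2 among members with a ratio, which 7 lacked. At the TSS 59 were called, and the median was 42.8 among members with a ratio, which 4 lacked. The median length was 0.53 kb and the median input density over the gene 0.622 TPM per kb, so most held few input tags. Such genes reached the minimum of tags over the gene mainly where Ser5 was high, so the call of all 55 largely follows from that minimum. Of all 67 genes 82.1% were called over the gene, against 30.6% of all protein-coding genes. The histone genes made up 35 of the 100 genes with the largest excess over the gene and 25 of the 100 at the TSS. No minimum length was set for these rankings, and 74 of the first 100 over the gene were under 2 kb. At the TSS, where all windows are equal in length, 29 were. Hist1h1c held 2503 Ser5 and 16 input tags over 1.56 kb, and Hist1h4i 731 and 0, a ratio of 241.0 with the 0 set to 3. Hist2h2ac held 465 and 1 (ratio 459.9, interval 82.1 to 18203.8) and Hist1h4c 463 and 1. Hist1h2be was the lowest of the 55, with 818 and 220 tags (ratio 3.68) over a longer record. Hist1h1t, a testis linker histone, held 5 and 7 tags. Many of these genes are near copies, the authors kept uniquely placed tags, and 7 of the genes held at most 3 tags in each library. A median of 76% of the bases in their TSS windows began a 36-base sequence found once in the genome, against 98.9% over all genes.

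Cell cycle and DNA replication genes were also called in nearly every case, 28 of 31 over the gene and 31 at the TSS. These were 90.3% and 100.0%, against 30.6% and 47.8% of all genes, and the median ratios were 4.34 and 10.5. Cdc20, an activator of mitotic protein degradation, held 254 Ser5 and 15 input tags (ratio 16.7), and Pcna, the sliding clamp of DNA polymerase, 392 and 35 (11.1, but 2.2 without the first 1 kb). The proliferation marker Mki67 held 854 and 141 tags (5.99). Bub1b, a mitotic checkpoint kinase, was the lowest, with 359 and 235 tags (1.51).

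The label of the cells was checked against their markers. Of 17 macrophage lineage transcription factors 15 were called over the gene (88.2%, against 30.6% of all genes) and 16 at the TSS (94.1%, against 47.8%), with median ratios of 6.71 and 23.0. Sfpi1, which encodes PU.1, held 3388 Ser5 and 293 input tags over the gene (ratio 11.4). The highest ratios belonged to Id2, an inhibitor of basic helix-loop-helix factors, with 356 and 8 tags (44.0), and to Cebpa with 297 and 7 (42.0). Cebpb held 561 and 15 (37.0) and Irf8 1428 and 144 (9.81). The exceptions were Mitf, with 2370 and 1305 tags over the gene (1.8) but 93 and 13 at the TSS (7.08), and Pparg, a nuclear receptor of lipid metabolism, with 314 and 715 (0.434) and 39 and 20 at the TSS (1.93).

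Surface receptors of macrophages were more divided. Over the gene 22 of 35 were called (62.9%, against 30.6% of all genes) and at the TSS 29 (82.9%, against 47.8%), with median ratios of 4.10 and 8.37. Cd14, the LPS co-receptor, held 620 Ser5 and 23 input tags (26.7), and Csf1r 3883 and 199 (19.3). Cd68, a late endosomal glycoprotein, held 616 and 34 (17.9), Sirpa 5272 and 328 (15.9) and Trem2 898 and 71 (12.5). Emr1, which encodes F4/80, held 2107 and 431 tags (4.84), and Itgam, the integrin CD11b, 968 and 358 (2.67). Itgax, the dendritic cell integrin CD11c, was lowest, with 44 and 144 (0.302), and the monocyte chemokine receptor Ccr2 held 43 and 95 (0.448). Cd36, a scavenger receptor that Pparg regulates, held 263 and 528 (0.493). Tlr4, Ptprc, Mertk and Mrc1 were between 1.15 and 1.49 over the gene and between 3.13 and 11.4 at the TSS.

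Lysosomal genes, which serve the degradation of engulfed material, were called in 37 of 42 cases over the gene and 40 at the TSS. These were 88.1% and 95.2%, against 30.6% and 47.8% of all genes, and the median ratios were 5.37 and 14.8. Ctsb, the protease cathepsin B, held 6783 Ser5 and 219 input tags (38.0 and 1.24 TPM per kb, ratio 30.6), and Ctsd, cathepsin D, 4459 and 151 (29.2). Psap, the precursor of the saposins, held 4249 and 212 (19.8) and Grn, progranulin, 1197 and 56 (21.1). Atp6v0d2, a subunit of the proton pump found mainly in osteoclasts, was lowest, with 247 and 270 tags over the gene (0.905) and 0 and 7 at the TSS.

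Iron and redox genes ranged from a ratio of 0.435 to 175.0 over the gene. Of 24 genes 21 were called over the gene (87.5%, against 30.6% of all genes) and 21 at the TSS (87.5%, against 47.8%). Beside Fth1, the ferritin light chain Ftl1 held 1781 Ser5 and 16 input tags (110.1), the peroxidase Gpx1 616 and 11 (55.4), and the haem oxygenase Hmox1 1129 and 49 (22.8). Among subunits of the phagocyte NADPH oxidase Cyba was at 17.1, Ncf1 at 17.0, Ncf4 at 8.99 and Cybb at 2.27. Nqo1 (0.435), the iron exporter Slc40a1 (0.481) and the cystine transporter Slc7a11 (0.651) were not called over the gene, and the first 2 of these were called at the TSS, with ratios of 3.38 and 3.35.

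All 32 genes of the actin cytoskeleton were called over the gene (against 30.6% of all genes) and 29 at the TSS (90.6%, against 47.8%). The median ratios were 7.40 and 20.8. Tmsb10 held 398 Ser5 and 4 input tags (98.4, interval 38.1 to 363.0, but 6.92 without the first 1 kb) and Actg1 743 and 11 (66.8). The lowest was Ezr, which links actin to the membrane, with 470 and 221 (2.1). Among 21 genes of lipid and cholesterol handling 17 were called over the gene (81.0%) and 20 at the TSS (95.2%). Fabp5, a fatty acid carrier, held 665 and 29 tags (22.7) and Scd2, a fatty acid desaturase, 2422 and 122 (19.6). Cd5l, a secreted protein of tissue macrophages, was lowest, with 24 and 59 (0.402), and Abca1, the cholesterol exporter, held 1160 and 746 over the gene (1.54) and 105 and 11 at the TSS (9.44).

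Immediate early genes, which respond within minutes to growth factors and stress, stood high in the library labelled untreated. Of 26 genes 22 were called over the gene (84.6%, against 30.6% of all genes) and 22 at the TSS (84.6%, against 47.8%). The median ratios were 14.7 and 19.3, and 7 of the genes were among the first 100 genes of any length by excess over the gene. Junb held 832 Ser5 and 16 input tags (51.4), Ier3 585 and 13 (44.5), Mcl1 1492 and 34 (43.4), Jun 804 and 29 (27.4), Myc 710 and 28 (25.1) and Fos 486 and 31 (15.5). The Egr genes were low. Egr1 held 26 and 17 tags over the gene (1.51, interval 0.79 to 2.97, and 0.618 without the first 1 kb) and 51 and 13 at the TSS (3.88), Egr2 102 and 37 over the gene (2.73), and Egr3 8 and 14 (0.565).

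LPS-inducible cytokines and effectors fell into separate ranges. Of 33 genes 16 were called over the gene (48.5%, against 30.6% of all genes) and 17 at the TSS (51.5%, against 47.8%), and the quartiles of the ratio over the gene were 0.558 and 15.2. Ccl2, a monocyte chemoattractant, held 1671 Ser5 and 25 input tags (66.1), Marcksl1 523 and 10 (51.7) and Tnf 1634 and 44 (36.7). Nfkbia (29.6), Ccl7 (28.4), Cxcl2 (23.1), Ccl3 (20.3), Irg1 (19.5), which makes itaconate, and Ccl4 (15.2) were also above 15. Between 2 and 8 lay Cxcl1, Socs3, Nfkbiz, Tnfaip3, Cxcl10, Plaur and Il27. The other 17 were not called over the gene, among them Ccl5 with 24 and 14 tags (1.7, interval 0.842 to 3.55), Nos2 with 133 and 174 (0.756), Il10 with 30 and 44 (0.674), Il1a with 11 and 52 (0.209), Ifnb1 with 3 and 7 (0.424) and Il12b (0.178, the lowest). At the TSS Tnf held 1352 and 27 tags, Il12b 4 and 8, and Il1b 6 and 24.

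Interferon-stimulated genes, which type I interferon induces against viruses, were called in 19 of 30 cases over the gene (63.3%, against 30.6% of all genes) and 25 at the TSS (83.3%, against 47.8%), with median ratios of 2.86 and 6.87. The regulators Irf9 (735 Ser5 and 52 input tags, 14.0) and Irf7 (534 and 38, 13.9) were highest, and Stat2 held 767 and 126 (6.02). The antiviral Oas2 held 747 and 95 (7.78) and Isg15 50 and 6 (8.24). Ifi44, Ifi205 and the guanylate-binding protein genes Gbp2, Gbp3 and Gbp5 lay between 0.247 and 0.428 and were called by neither measure.

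Most genes for general cell functions were called. All 78 cytosolic ribosomal protein genes were called over the gene, with a median ratio of 13.7, and 77 at the TSS, with a median of 17.8. Of all genes 30.6% and 47.8% were called. The ribosomal protein genes were short, with a median length of 3.23 kb, and lay between Rpl24 (748 Ser5 and 245 input tags, 3.02) and Rps2 (529 and 12, 43.6). Rpl3 held 1163 and 41 tags (28.1). The exception at the TSS was Rps10, with 13 and 10 tags there and 532 and 38 over the gene (13.8).

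Over the gene 29 of 30 splicing factor and hnRNP genes were called, 23 of 24 translation factors, 25 of 26 chaperones, 16 of 17 glycolytic genes, 26 of 28 nuclear-encoded genes of the respiratory chain and 27 of 36 proteasome subunits. Median ratios over the gene were 7.08, 6.67, 5.47, 8.55, 4.61 and 3.41 in that order. Gapdh held 1166 Ser5 and 33 input tags (34.9), Eif1 479 and 12 (39.5), Hspa8 738 and 25 (29.2), Cyc1 211 and 7 (29.8), and Srsf2 956 and 35 (27). Without the first 1 kb the ratio was 5.84 for Eif1, 11 for Hspa8 and 5.6 for Srsf2, and 15 chaperones and 15 respiratory chain genes were called. The proteasome genes with the highest ratios were Psmb10 (314 and 14, 22.2), a subunit of the immunoproteasome, and Psme1 (230 and 18, 12.6), of its activator. At the TSS 35 of the 36 proteasome genes were called (97.2%, against 47.8% of all genes), with a median ratio of 10.1.

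Most markers of other cell types were not called, and list medians were under input on the scale of library totals. None of 16 fibroblast and stromal markers was called by either measure, with 847 Ser5 and 2503 input tags in all, and Acta2 was highest at 130 and 130 (0.989). None of 18 muscle markers was called over the gene, and Tnnt3 was called at the TSS with 27 and 12 tags (2.23). Of 17 liver markers Apoa2 was called, with 131 and 15 (8.64), while albumin (Alb) held 11 and 49 (0.222). Of 19 neuronal markers Eno2 (238 and 51, 4.62), Syp (173 and 69, 2.48) and Dlg4 (252 and 123, 2.03) were called. These lists had median ratios of 0.264, 0.303, 0.278 and 0.315 over the gene, against 1.21 over all genes with a ratio. Of their members 0.00%, 0.00%, 5.88% and 15.8% were called over the gene, against 30.6% of all genes.

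Markers of other blood cells had median ratios over the gene of 0.354 for T cells, 0.402 for B cells, 0.330 for neutrophils, 0.549 for erythroid cells and megakaryocytes and 0.513 for osteoclasts and dendritic cells. The shares of their members called over the gene were 15%, 25%, 6.67%, 18.8% and 10.0%, against 30.6% of all genes. Among 20 T cell markers Cd3d (136 Ser5 and 35 input tags, 3.84), Lck (312 and 98, 3.15) and Cd27 (47 and 18, 2.58) were called over the gene, but their TSS windows held 2 and 18, 1 and 8, and 21 and 15 tags. Cd3e held 6 and 46 (0.129). Among 16 B cell markers Cd72, a B cell co-receptor, was highest over the gene at 699 and 51 (13.6). Vpreb1 (5.32), Fcer2a (2.65) and Blnk (2.24) were also called over the gene, while Ms4a1, which encodes CD20, held 13 and 115 (0.112). Fcer2a was not called at the TSS, with 2 and 5 tags there. Among 15 neutrophil and granule markers the transcription factor Cebpe was called, with 22 and 3 (7.25, interval 2.18 to 37.8), whereas Elane held 5 and 9 and Mpo 11 and 39. Gp1ba (5.93), Klf1 (2.89) and Pf4 (2.47) were called over the gene among 16 erythroid and megakaryocyte markers. Gp1ba and Klf1 were not called at the TSS, where they held 22 and 12, and 16 and 18 tags. Of 20 osteoclast and dendritic cell markers Acp5 (97 and 37, 2.59) and Nfatc1 (1422 and 596, 2.36) were called over the gene. Neither was called at the TSS, where they held 6 and 5, and 18 and 16 tags. With bulk chromatin, a low signal in all cells and a high one in a few cannot be told apart.

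Hox genes, which pattern the body axis, were called in 2 of 40 cases over the gene and in 2 at the TSS. Both shares were 5.0%, against 30.6% and 47.8% of all genes. Over the gene Hoxb4 held 242 Ser5 and 35 input tags (6.84), and at the TSS Hoxa4 held 170 and 17 (9.89). Of 1113 olfactory receptor genes 38 had enough tags and Olfr692 alone was called over the gene, with 19 and 4 tags (4.7, interval 1.56 to 19), and the family held 1335 Ser5 and 4122 input tags in all, a ratio of 0.320. The 331 vomeronasal receptor genes held 762 and 3020 (0.250) with none called. The 97 keratin genes held 409 and 1147 (0.353) with Krt10 called over the gene (2.26) and none at the TSS. The 365 zinc finger genes named Zfp had 159 members called over the gene (43.6%, against 30.6% of all genes) and 255 at the TSS (69.9%, against 47.8%), with median ratios of 1.86 and 6.92.

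**Figure D2:**
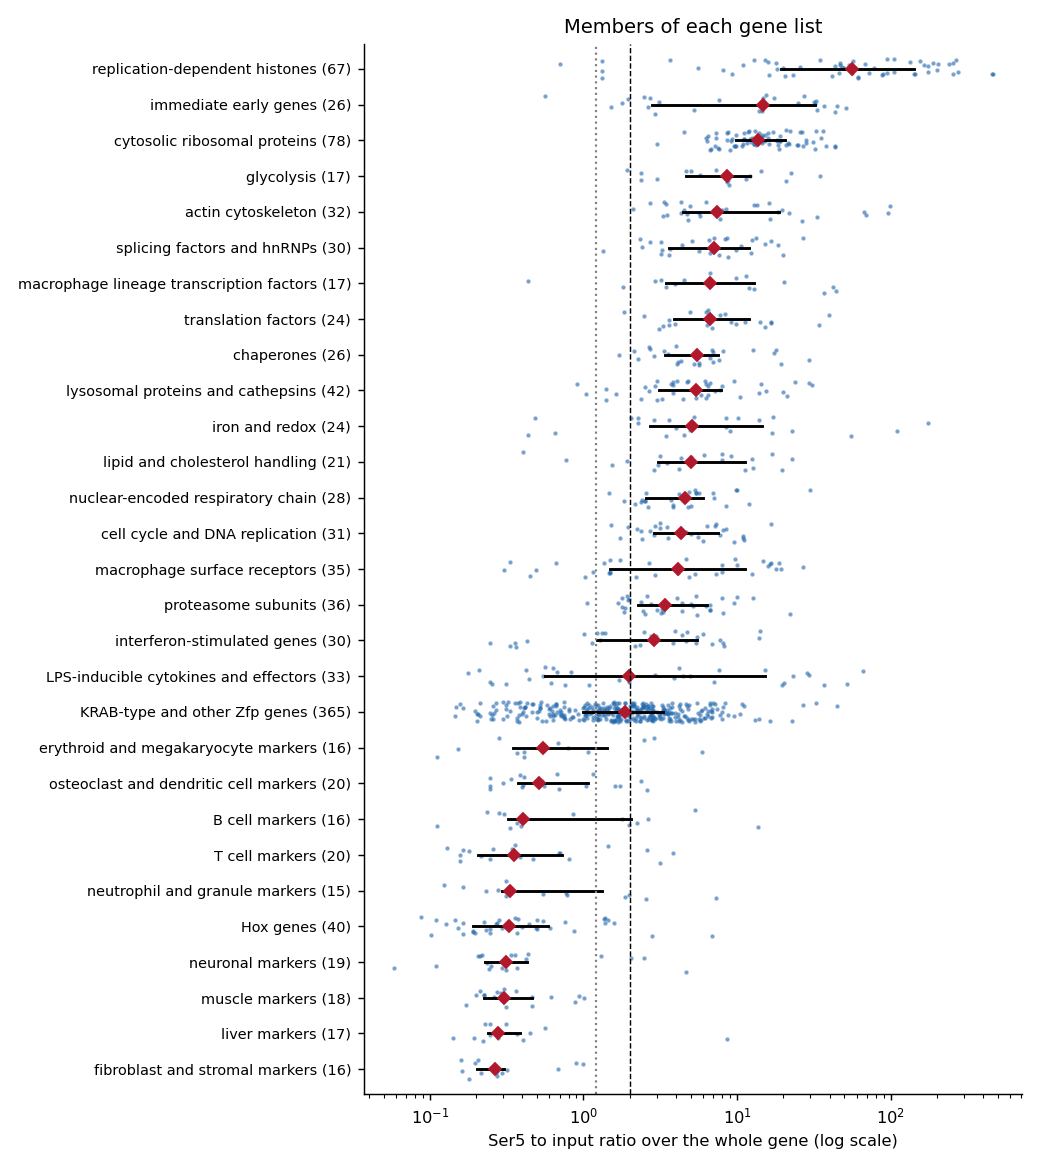
Ser5 to input ratio over the whole gene, on a log scale, of each member with a ratio of 29 gene lists (blue points, numbers of genes in brackets, points spread vertically for visibility). Red diamonds are medians and black bars quartiles. The dashed line is the ratio of 2 used for calls and the dotted line the median of all genes with a ratio, 1.21. Histones (median 56.2), immediate early genes (14.7) and ribosomal proteins (13.7) are at the top, and fibroblast, liver and muscle markers at the bottom, between 0.264 and 0.303.

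The share of genes called differed between classes of length. Over the gene it was 12.7% under 2 kb, 40.6% from 2 to 5 kb, 46.8% from 5 to 20 kb, 34.5% from 20 to 50 kb, 16% from 50 to 100 kb and 5.67% over 100 kb. At the TSS it was 15.7%, 42.0%, 53.5%, 60.4%, 59.2% and 44.4% in the same order. Few genes under 2 kb had enough tags over the gene, 457 of 3290, and 419 of the 457 were called. Of the genes with enough tags, 1035 of 1431 were called from 2 to 5 kb, 3182 of 6078 from 5 to 20 kb and 136 of 2360 over 100 kb. Short genes hold few input tags and reached the minimum of 20 mainly where Ser5 was high, so neither share is free of that minimum. The 5 genes over 100 kb with the largest ratios held 4.72 (Tex14), 7.84 (Zeb2), 5.76 (Rbpj), 4.87 (Nrp2) and 5.03 (Sash1) TPM per kb of Ser5 beyond 1 kb from the TSS. Tex14, known for its role in germ cells, held 5381 Ser5 and 662 input tags (8.04), which fell to 4.75 with 1 tag per position and strand. Zeb2, a zinc finger repressor, held 8142 and 1021 (7.89). Rbpj, the DNA-binding partner of Notch, held 4424 and 751 (5.83), the semaphorin receptor Nrp2 4559 and 790 (5.71), and Sash1 6481 and 1140 (5.62). The 4 genes with the most Ser5 tags in all were Gm20388 (39421), Fgfr2 (11733), Zeb2 (8142) and Ctsb (6783). The first 2 of these records span 4434.9 and 3009.1 kb and hold many other genes, and over the bases that no other gene covers the ratio of Fgfr2 was 0.582.

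Around the TSS, Ser5 peaked within the first 100 bases downstream. Genes with no other TSS within 2 kb were grouped by their TSS ratio, which fixes their order in height but not the shape of the profile. In the bin from 0 to 99 bp the Ser5 density was 29.4 TPM per kb for the 4022 genes with ratios of 2 to 10, 61.7 for the 3705 genes with ratios of 10 to 30, and 132.0 for the 426 genes with ratios of 30 or more. In the 100 bp upstream of the TSS it was 19.4, 44.0 and 77.1. Of the Ser5 tags in the window, 39.0%, 43.6% and 39.2% lay upstream of the TSS, and 29.8%, 39.5% and 35.9% of genes had more tags upstream than downstream. Input at the same bin was 1.16, 1.07 and 0.96 TPM per kb. Input was not flat: its median density in TSS windows was 1.06 TPM per kb for called genes and 0.332 for genes not called, so that the ratios at active promoters are taken against a raised control.

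**Figure D3:**
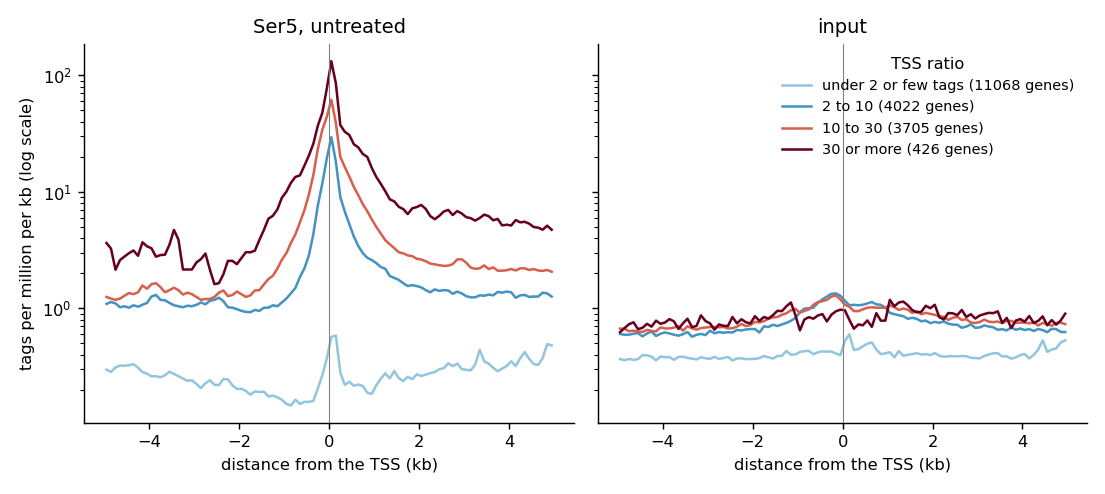
Mean density of Ser5 (left) and input (right) in bins of 100 bp from 5 kb before to 5 kb past the TSS, in TPM per kb on a log scale, for genes with no other TSS within 2 kb, by Ser5 to input ratio in the TSS window. Ser5 peaks just past the TSS in the 3 called classes, at 29.4, 61.7 and 132.0 TPM per kb, while input in all classes stays between 0.356 and 1.34 TPM per kb.

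Genes differed in how far Ser5 extended from the promoter. Among the 7052 called genes over 5 kb with at least 100 Ser5 tags at the TSS, the density at the TSS was a median of 13.4 times that of the rest of the gene (quartiles 7.77 and 23.0). The largest contrast was in Efcab2, with 43.9 TPM per kb at the TSS and 0.11 beyond, followed by Pate2, 5033411D12Rik, 1700025E21Rik and 5830403L16Rik, with 17.1 to 34.9 at the TSS and 0.0574 to 0.159 beyond. At the other end Aldoa, a glycolytic enzyme, had 8.8 TPM per kb at its annotated TSS and 28.5 beyond, and Dbp, Tesk1, Fzr1 and H3f3b also had more beyond than at the TSS. Over the 7018 genes called at the TSS that were longer than 5 kb, had at least 5 Ser5 tags beyond 1 kb and had no other TSS within 2 kb, the median contrast was 11.1. Of the lists with at least 5 such genes, only chaperones (12.2 over 12) and Zfp genes (12.7 over 212) had a larger median. The smallest was that of LPS-inducible genes (2.47 over 5), followed by macrophage surface receptors (3.17 over 23), ribosomal proteins (4.10 over 12), glycolytic genes (4.18 over 13) and macrophage transcription factors (4.28 over 11). The medians of the other lists lay between 5.11 for lysosomal genes and 9.30 for splicing factors. Over all such genes the median contrast also rose with length, from 8.01 at 5 to 20 kb to 17.6 over 100 kb. By the ratio of observed to expected CpG within 500 bp of the TSS, it was 4.25 under 0.4 and 12.3 at 0.6 or more. The part of length and CpG content in the differences between lists was not tested.

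The 4310 genes called at the TSS only had a median length of 46.2 kb, and beyond 1 kb from the TSS their median ratio was 0.863 (quartiles 0.587 and 1.16). The 6371 genes called by both measures had a median length of 12.6 kb and a median ratio of 2.47 beyond 1 kb. Among the 474 genes called over the gene only, the 5′ end of the record often was not where the tags began. For 213 of them the coding transcript with the longest coding sequence starts elsewhere, and 144, or 30.4% of the 474, were called at that start. Rbpj held 6 Ser5 and 18 input tags at the 5′ end of its record and 841 and 26 at the other start, 34436 bp away. The galectin gene Lgals3 held 15 and 18 and 913 and 29, Coro1a 16 and 20 and 436 and 17, Gpx4, which detoxifies lipid peroxides, 6 and 14 and 510 and 15, Hsp90aa1 32 and 19 and 509 and 22, and Cdkn1a, the cell cycle inhibitor p21, 39 and 30 and 784 and 22. Best1, first of these genes by excess, held 4260 and 168 tags over the gene and 5 and 22 at its TSS. Its transcript with the longest coding sequence starts at the same base. Whether its tags belong to a neighbouring gene was not tested.

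Past the 3′ end Ser5 rose before it declined. In 1553 called genes over 5 kb with no other gene within 10 kb downstream, the mean density was 1.89 TPM per kb in the last 2 kb (ratio to input 3.23, interval 3.17 to 3.29) and 2.99 in the first 2 kb past the 3′ end (4.80, interval 4.72 to 4.89). It was 1.99 from 2 to 4 kb, 1.12 from 4 to 6 kb, 0.778 from 6 to 8 kb and 0.625 from 8 to 10 kb, where the ratio was 1.18 (1.16 to 1.21). Of the 1553 genes, 1107 (71.3%) had more Ser5 tags in the 2 kb past the 3′ end than in the last 2 kb, and 392 had fewer. Input lay between 0.527 and 0.623 TPM per kb over the same bins.

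**Figure D4:**
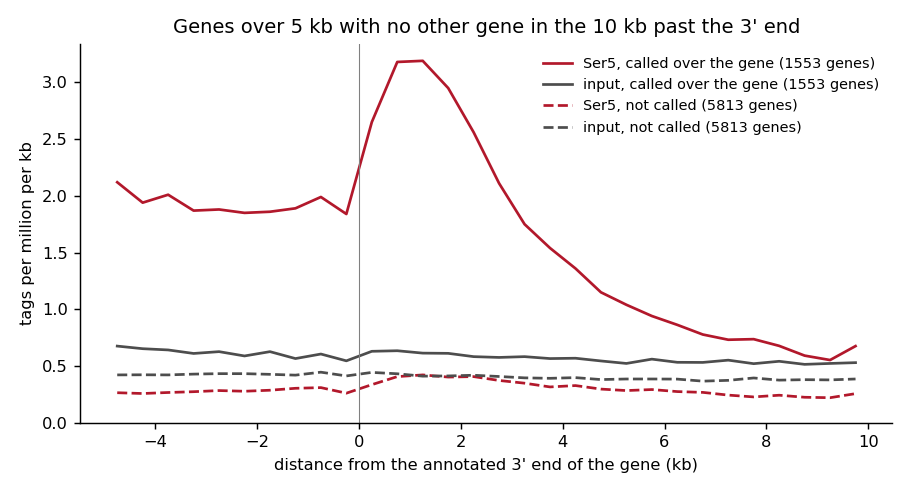
Mean density in bins of 500 bp from 5 kb before to 10 kb past the annotated 3′ end, in TPM per kb, of Ser5 (red) and input (grey) for genes over 5 kb with no other gene in the 10 kb past the 3′ end; solid lines are the 1553 genes called over the gene, dashed lines the 5813 genes not called. Ser5 of called genes rises to 3.19 TPM per kb between 1 and 1.5 kb past the 3′ end and falls to 0.553 by 9.5 kb, while input stays between 0.515 and 0.676.

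The called genes shared sequence features that the counts did not use. The ratio of observed to expected CpG within 500 bp of the TSS was at least 0.6 for 75.6% of genes called at the TSS, 18.2% of genes not called and 88.4% of the 570 genes with a TSS ratio of 30 or more, against 45.6% of all genes. Read the other way, 79.2% of the 10199 genes with such promoters were called at the TSS, 47.1% of the 3190 between 0.4 and 0.6, and 12.3% of the 8958 under 0.4. Genes with too few tags count here as not called. Those with enough tags were 9095, 2269 and 3491, of which 8079, 1501 and 1101 were called. Gene lists did not all follow this. Only 2 of the 35 macrophage surface receptors, 5 of the 33 LPS-inducible genes and 3 of the 30 interferon-stimulated genes reached 0.6, while 29, 17 and 25 of them were called at the TSS, and the median over the called receptors was 0.188. Among macrophage transcription factors 14 of 17 reached it, among immediate early genes 25 of 26, among histones 65 of 67 and among ribosomal proteins 73 of 78. For Hox genes 22 of 40 reached it and 2 were called.

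**Figure D5:**
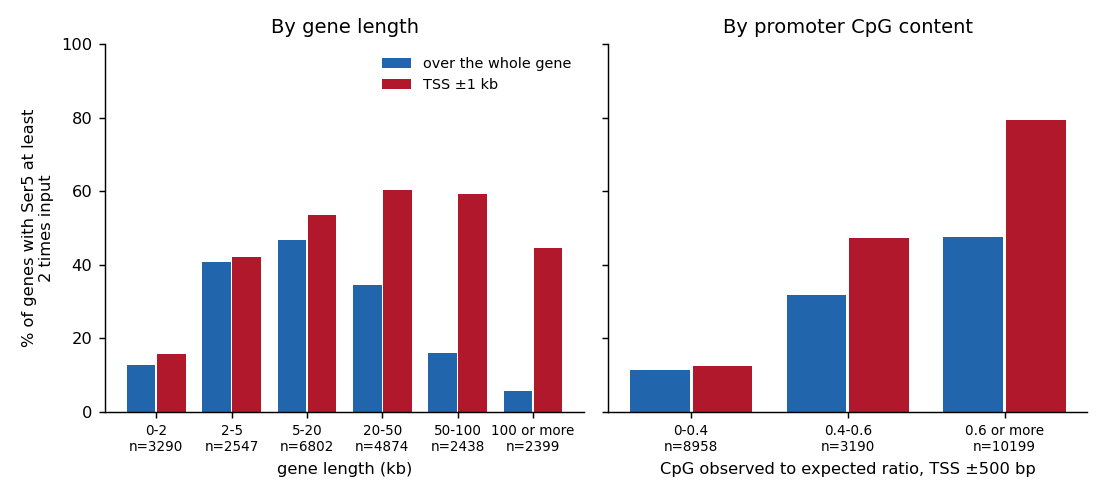
Share of genes, in percent, with Ser5 at least 2 times input over the whole gene (blue) and in the window of 1 kb on either side of the TSS (red), by gene length (left) and by the observed to expected CpG ratio within 500 bp of the TSS (right); genes with too few tags count as not called. The share called over the gene is 12.7% under 2 kb, highest at 5 to 20 kb (46.8%) and 5.67% over 100 kb, and the share called at the TSS rises from 12.3% to 79.2% with CpG content.

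Short motifs were searched for on both strands in the 300 bases around each TSS, and a match is a description of the letters only. The GC box GGGCGG was in 64.5% of promoters called at the TSS and 43.5% of all promoters, and the ETS motif CCGGAAGT in 8.94% and 4.70%. The TATA box letters TATAAA were in 6.81% of called promoters and 13.4% of all, but in 28.0% of the 100 promoters with the largest excess at the TSS. Replication-dependent histone genes made up 25 of these 100. Histone promoters held TATAAA in 38 of 67 cases and CCAAT in 57 of 67 (85.1%, against 37.9% of all). The letters TCACGTGA, an E-box of the kind that regulators of lysosome genes bind, were in 7 of 42 lysosomal promoters (16.7%) and 1.08% of all. Ribosomal protein promoters held CCGGAAGT in 14 of 78 cases (17.9%) and LPS-inducible promoters TATAAA in 14 of 33 (42.4%).

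Genes of the X chromosome carried less Ser5 than those of the autosomes, by both levels and calls. Of 932 X-linked genes 15.1% were called over the gene and 32.3% at the TSS, against 31.3% and 48.5% of 21418 autosomal genes. Genes with too few tags count here as not called. Of those with enough tags over the gene, 141 of 594 were called on the X and 6704 of 16858 on autosomes. At the TSS these were 301 of 478 and 10380 of 14377. The median Ser5 density over the gene was 0.116 TPM per kb on the X and 0.454 on autosomes. The input density was lower as well, 0.383 against 0.527, and so was the median ratio of observed to expected CpG, 0.389 against 0.559. The part of either in the difference was not tested. Among autosomes the share called over the gene ran from 20.7% on chromosome 14 to 41.5% on chromosome 11. The X-linked gene Tmsb4x nevertheless ranked 4 among all genes of at least 2 kb.

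The deposited peaks of the same library, called by the authors against this input, gave a second view of the same tags. A peak overlapped the TSS window of 97.2% of the genes called there and of 2.9% of those not called.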

How the data were processed

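The authors aligned the reads to mm9 with Bowtie, keeping tags with a unique match and at most 2 mismatches, and called peaks with MACS against the input; versions are not given in the sources used here. The deposited tag files give the position of each tag, duplicates kept, and no counts, signal or other measured unit. The deposited peak list gives a score per peak, minus 10 times log10 of the MACS p-value, and was used here only for the position of the 53467 peaks. Tags were 45 bases long in Ser5 and 36 in input. The methods give the tag length of this Ser5 library for the LPS-treated sample and a shorter one for untreated cells. An exchange of the Ser5 files cannot be told apart here from an error in the methods, and the library was taken by its label.

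Tags were assigned to genes by 5′ end. Starts were taken as 0-based and 1 was added, because read as 1-based 1 Ser5 and 2 input tags lay on assembly gaps and read as 0-based 0 did. The annotation was GENCODE M1 and the sequence its mm9 assembly. Intervals are exact Poisson intervals for densities and exact conditional intervals for ratios, and tags can be PCR copies. Counting equalled a direct count in 1000 of 1000 simulated regions, and 96.4% of 4938 simulated intervals held the true ratio.

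The genes, lists and rules were chosen with earlier results of these data known. Named genes are the 12 with the largest excess density over the gene (at least 2 kb) and at the TSS, the 5 with the largest ratio over 100 kb, the 5 highest and lowest TSS-to-rest contrasts, the 4 with most tags, the 2 highest and 1 lowest of each list with at least 20 tags, and 16 fixed genes. Others were chosen after their values were seen. The list entries Tfec, Tfeb, Pirb, Hmgcs1, Cxcl11, Gfi1, Ocstamp, Tf and Map2 were not analysed here, nor was the LPS library. Some genes that the rule names and 1 promoter sequence are not reported here. Alternatives were other scalings, filters, windows and TSS. Python 3.11.15, numpy 2.4.6, pandas 2.3.3, scipy 1.17.1, numba 0.67.0 and matplotlib 3.10.9 were used.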

Additional observations from a re-analysis of the deposited data

How the results depend on the processing

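The count of genes called at the TSS lay between 8153 and 11528 under the alternatives tried, within 1.5 times the reported 10681, and that over the gene between 5437 and 9801 (reported 6845) under all but 1 of them. Leaving out the first 1 kb past the TSS gave 4172 genes, 4130 of them among the 6845. The same setting gave 15 respiratory chain genes, 15 chaperones, 5 histones (most are shorter than 1 kb), 74 Zfp genes, 1 Hox gene and 0 neutrophil, liver and olfactory receptor genes called. Scaling to tags outside peaks gave 242 Zfp genes, 6 Hox genes, 5 osteoclast and dendritic and 3 neutrophil markers. Moving tags 75 bp gave 2 neutrophil markers and 0 olfactory receptors, and bases covered by no other gene 1 Hox gene. Of the values of named genes recomputed, 702 moved by less than their counting interval, 178 moved by more and 8 changed direction. Without the first 1 kb 41 moved by more, and with scaling outside peaks 100. The direction of a ratio turned without the first 1 kb for Efcab2 (0.214), 5830403L16Rik (0.433), Eif1ax (0.962), Hsph1 (0.940) and Hnrnpr (0.961), with scaling outside peaks for Olfr56 (1.53) and Il1b (1.02), and for Fgfr2 (0.582) over bases of its own. No paired analysis was possible because each condition has 1 library. The depth, a median of 13 Ser5 tags in a TSS window, leaves 7495 genes unread there.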
